A study of Homo sapiens with 15 samples.

Results

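The genes described here are 39 genes of autophagy and the lysosome, chosen by symbol from the 58735 gene rows of the deposited expression table and read in each of its 15 count columns. The cells were A549, a line derived from a human lung adenocarcinoma, exposed for 24 h to 100 µg/mL of fine particulate matter (PM2.5) or to the vehicle DMSO. The particulate came as 4 samples that the labels code CDSUM, CDWIN, CQSUM and CQWIN, and each of the 5 groups, DMSO included, had 3 RNA-seq libraries. The labels do not spell out the codes, and nothing in them shows whether the 3 libraries of each group were grown separately, so the p-values measure the spread between these libraries, which may be technical. The labels describe the cells as type II alveolar epithelium. In these libraries the surfactant protein genes SFTPA1 and SFTPA2 had 0 reads in all 15, and SFTPB, SFTPC, SFTPD, LAMP3 and SLC34A2 reached at most 0.753 CPM (read counts scaled to the library's total), whereas ABCA3, a lipid transporter of that cell type, had 39.5 to 84.9 CPM.

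Autophagy wraps part of the cytoplasm in a double membrane, the autophagosome, and delivers it to the lysosome for breakdown. An initiating kinase complex around ULK1 and a lipid kinase complex around PIK3C3 start the membrane, the ATG conjugation enzymes attach LC3 and GABARAP proteins to it, and receptors such as SQSTM1 link cargo to those proteins. Cathepsins and glycosidases digest the content in the lysosome, and the transcription factors TFEB and TFE3 activate many genes of both systems when mTORC1 signalling is low.

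The libraries held 17583532 to 19216323 reads assigned to genes, of which the 39 genes took 0.425% to 0.603%. CPM values were scaled with TMM, log2 fold changes came from edgeR's quasi-likelihood test on the counts, and a gene is called changed where the Benjamini-Hochberg adjusted p over all 15565 genes tested was below 0.05. The test returns no standard error (SE). Each SE given here is the absolute log2 fold change divided by the square root of the test's F statistic, and so is approximate. All 39 genes passed the filter on low counts. Some features of the libraries moved with the groups. Relative to the mean of the 15 libraries, and with gene length in the same regression, log2 CPM fell with the GC content of a gene's transcript in CDWIN, CQSUM and CQWIN (slope -0.219 to -0.107 log2 units per 10 percentage points), except in CDWIN library 2 (0.132). It rose with GC content in CDSUM (0.145 to 0.207) and DMSO (0.148 to 0.339). Slopes per doubling of gene length were 0.101 to 0.194 in DMSO, -0.145 to -0.0733 in CDSUM and -0.0902 to -0.0645 in CDWIN. They were -0.0947 to 0.0492 in CQSUM and -0.0969 to 0.176 in CQWIN. Epithelial markers summed to 6900 to 7420 CPM in CDSUM, 6130 to 7700 in CDWIN, 6740 to 7710 in CQSUM and 6520 to 8330 in CQWIN, against 12900 to 16100 in DMSO, and the part of this difference in the results was not tested. Most of the sum came from the keratins KRT8 (2989 to 8743 CPM over all libraries), KRT7 (956 to 4262) and KRT18 (1027 to 2741). Of the 8 markers, 2 were called higher and 4 lower than DMSO in CDSUM, CDWIN and CQSUM, and 1 higher and 3 lower in CQWIN. The leukocyte genes PTPRC and CD3E and the fibroblast gene COL1A2 had 0 reads in all 15 libraries. From the same lists of leukocyte, fibroblast and endothelial genes, CD14 had 6.37 to 14.56 CPM, ITGAM 0.577 to 2.118 and COL1A1 2.709 to 14.48. The others reached at most 1.185 CPM. The median log2 fold change over all genes in CDSUM against DMSO was -0.25 with TMM and -0.10 with DESeq2 size factors. A value described below as trend-corrected comes from the same test with each library's trends in GC content and gene length removed. In bulk RNA, fewer cells and less RNA of a gene per cell cannot be told apart.

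In DMSO cells the lysosomal proteases and 1 receptor dominated. On the deposited FPKM scale, which is per length and so allows genes to be set against each other, CTSL had 184 ± 17.1 FPKM, CTSB 120 ± 8.39, SQSTM1 117 ± 15.2, CTSZ 101 ± 11.4 and CTSD 71.9 ± 14.8 (SD, n = 3 each). Neighbours from CTSB to CTSZ lay within their spread. The autophagy machinery was lower: ATG101 reached 29.7 ± 6.03 FPKM and GABARAPL2 16.5 ± 1.46, whereas UVRAG had 1.32 ± 0.101, RB1CC1 1.21 ± 0.439 and PIK3C3 0.598 ± 0.102, the lowest level of the 39.

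Of the 39 genes, 10 rose and 8 fell in CDSUM against DMSO, where 15.3% of all genes tested were called higher and 31.2% lower. CDWIN against DMSO also gave 10 rises and 8 falls, beside 18.4% and 23.3% of all genes. CQSUM against DMSO gave 10 rises and 8 falls beside 13.7% and 18.8%, and CQWIN against DMSO 11 rises and 4 falls beside 11.6% and 15.8%. The share of the 39 called in either direction was 46.2% in each of the first 3 comparisons and 38.5% in CQWIN, so that in CDSUM it was near that of all genes, with a larger part of rises. Their median log2 fold change was -0.06 in CDSUM, 0.12 in CDWIN, 0.06 in CQSUM and 0.07 in CQWIN, against -0.25, -0.11, -0.00 and 0.02 over all genes. Under DESeq2 size factors 12 of the 39 rose and 6 fell in CDSUM, the median there turned to 0.09, and among all genes called there the higher share was 45.1% in place of 32.9%. In CQSUM that share was 52.3% in place of 42.2%. All 4 comparisons use the same DMSO libraries, so their values stand side by side below and are not independent of each other.

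**Figure D1:**
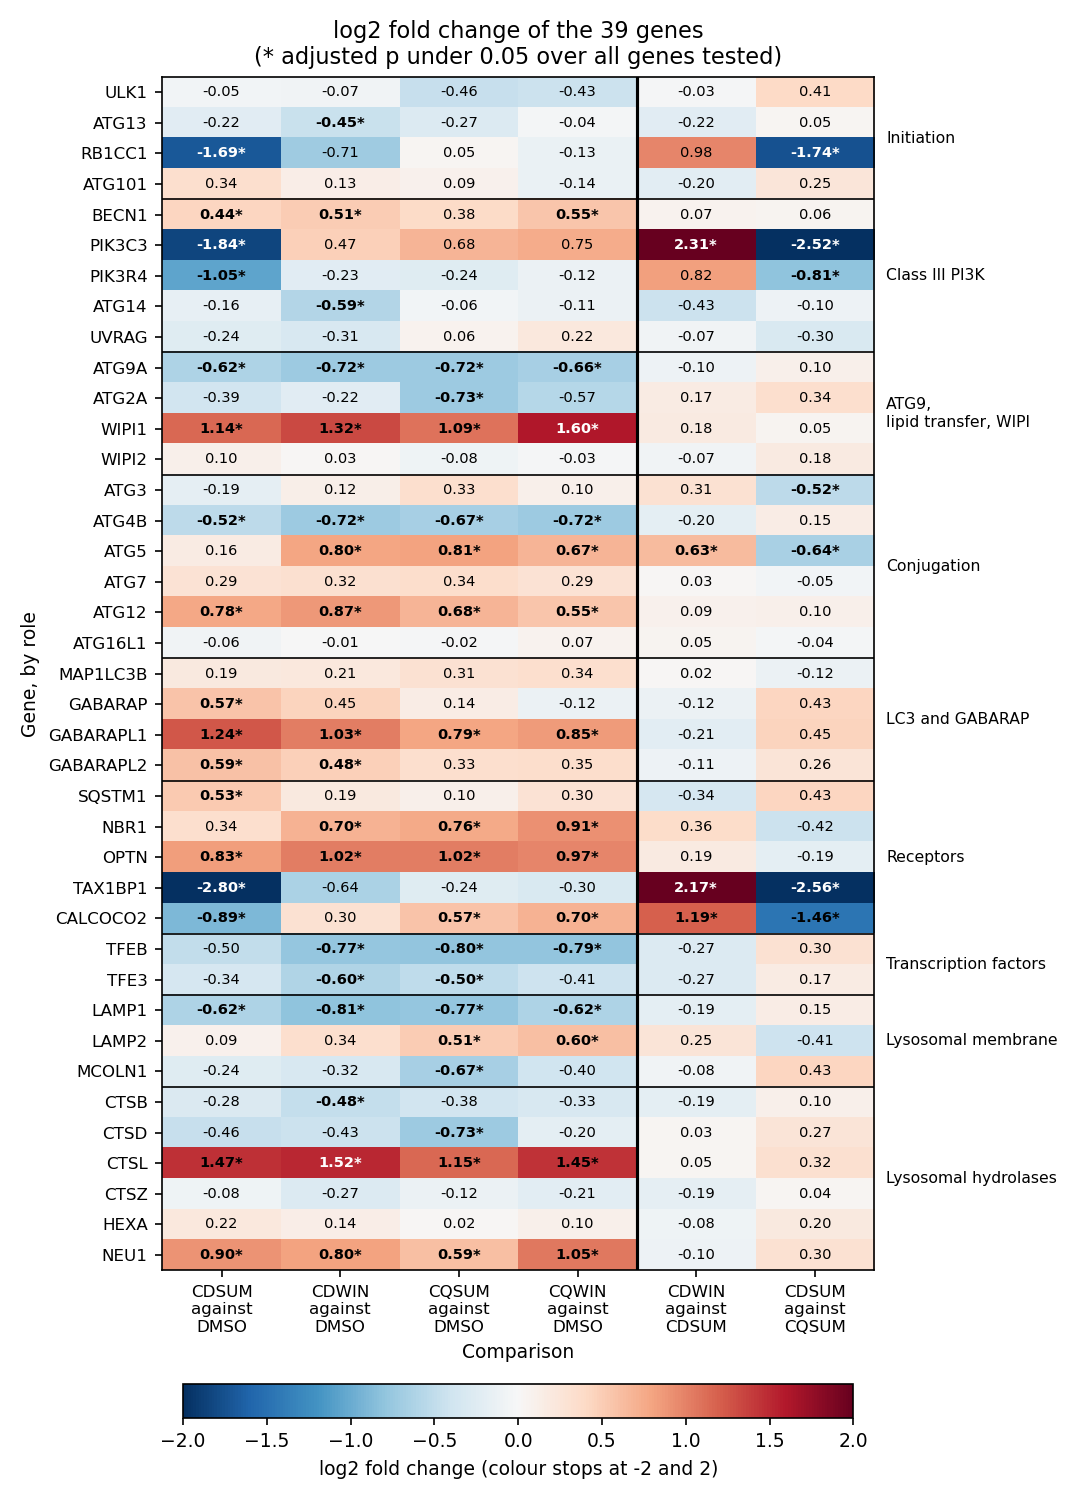
Fitted log2 fold change of each of the 39 genes (rows, grouped by role) in 6 comparisons (columns), with an asterisk where the adjusted p was below 0.05. CTSL, WIPI1, GABARAPL1 and OPTN stand in red in the columns against DMSO, and TAX1BP1, PIK3C3 and RB1CC1 are dark blue in CDSUM, at -2.80, -1.84 and -1.69.

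Of the 4 genes of the initiating complex, RB1CC1 fell in CDSUM and ATG13 in CDWIN, and no other was called against DMSO. ULK1, the kinase that starts autophagy, had 44.1, 59.2 and 73.0 CPM in CDSUM, 48.5, 74.6 and 50.4 in CDWIN, 43.9, 39.1 and 50.2 in CQSUM and 43.2, 39.4 and 52.6 in CQWIN, against 59.2, 62.5 and 60.9 CPM in DMSO. CDSUM and CDWIN overlapped DMSO, and the libraries of CQSUM and CQWIN lay below it, at log2 fold changes of -0.46 ± 0.19 and -0.43 ± 0.19 (SE) that missed the threshold. RB1CC1, the scaffold of the complex also known as FIP200, had 2.99, 2.67 and 3.53 CPM in CDSUM, 5.25, 7 and 5.96 in CDWIN, 19.3, 4.5 and 6.78 in CQSUM and 3.39, 10.5 and 13.2 in CQWIN, against 13.2, 5.66 and 10.8 CPM in DMSO. Only the CDSUM libraries all lay below DMSO (log2 fold change -1.69 ± 0.49, adjusted p = 0.0094 by edgeR's quasi-likelihood test). ATG13, an adaptor of the complex, fell by 0.45 on the log2 scale in CDWIN, a call that ended without CDWIN library 2 or 3 or without any 1 DMSO library (-0.48 to -0.40), with DESeq2 size factors (-0.37), with no filter on low counts (-0.42) and after trend correction (-0.04). ATG101, its partner, was called in no comparison (-0.14 to 0.34). Trend-corrected, ULK1 took the opposite sign and passed the threshold in CDSUM (0.44) and CDWIN (0.56).

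The 5 genes of the class III phosphatidylinositol 3-kinase, which makes the lipid that marks the forming membrane, split by subunit. BECN1, its regulatory subunit, had 55.0, 52.0 and 55.3 CPM in CDSUM, 57.2, 48.5 and 64.7 in CDWIN, 46.9, 53.3 and 55.9 in CQSUM and 76.3, 51.5 and 47.9 in CQWIN, against 43.0, 34.5 and 42.6 CPM in DMSO. Every PM2.5 library lay above DMSO, and BECN1 was called higher in CDSUM (0.44 ± 0.17), CDWIN (0.51 ± 0.17) and CQWIN (0.55 ± 0.17). These calls did not all hold with fewer libraries. In CDSUM the call was near the threshold (adjusted p = 0.0443 by edgeR's quasi-likelihood test). It ended whichever of the 6 libraries was left out (0.34 to 0.49), also where the value was larger, as without DMSO library 1 (0.49). In CDWIN it ended without CDWIN library 1 (0.50) or 3 (0.40) or DMSO library 2 (0.41). In CQWIN it ended without CQWIN library 1 (0.31) or DMSO library 2 (0.45) and after trend correction (0.43). The opposite picture held for the catalytic subunit PIK3C3 (VPS34) in CDSUM, with 4.01, 1.85 and 2.33 CPM there, 18.5, 6.21 and 15.9 in CDWIN, 18.0, 10.7 and 18.1 in CQSUM and 15, 19.0 and 15 in CQWIN, against 8.85, 8.50 and 11.9 CPM in DMSO. The CDSUM libraries were the 3 lowest of the 15 (log2 fold change against DMSO -1.84 ± 0.36, adjusted p = 0.000879 by edgeR's quasi-likelihood test, trend-corrected -1.18), and the positive changes in CDWIN (0.47), CQSUM (0.68) and CQWIN (0.75) missed the threshold. PIK3R4 (VPS15), the kinase-like subunit that holds PIK3C3, fell in CDSUM as well (-1.05 ± 0.26), with 6.16, 6.70 and 5.70 CPM, against 12.8, 9.40 and 16.3 CPM in DMSO. ATG14, which directs the complex to autophagy, fell in CDWIN (-0.59 ± 0.21), but not without any 1 of its libraries or DMSO library 2 or 3 (-0.62 to -0.53) and not with no filter on low counts (-0.56). UVRAG, its counterpart on the endosome, was called in no comparison (-0.31 to 0.22).

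WIPI1, which binds that lipid on the forming membrane, was among the largest rises of the 39. It had 18.2, 16.6 and 19.8 CPM in CDSUM, 24.7, 14.6 and 22.4 in CDWIN, 15, 19.9 and 17.7 in CQSUM and 35.2, 18.8 and 20.8 in CQWIN, against 9.15, 9.03 and 6.51 CPM in DMSO. The highest DMSO library lay below the lowest PM2.5 library, and the log2 fold changes were 1.14 ± 0.25, 1.32 ± 0.25, 1.09 ± 0.25 and 1.60 ± 0.25 in CDSUM, CDWIN, CQSUM and CQWIN (adjusted p between 0.000265 and 0.00314 by edgeR's quasi-likelihood test). ARSG, a sulfatase gene on the opposite strand at WIPI1, rose with it in CDSUM (0.80 ± 0.26) and CQWIN (1.23 ± 0.25). The WIPI1 relative WIPI2 was called in no comparison (-0.08 to 0.10), but trend-corrected it passed the threshold in CDSUM (0.47), CDWIN (0.59) and, with the sign turned, CQSUM (0.41). ATG9A, the membrane protein whose vesicles seed the autophagosome, fell in all 4 comparisons. It had 22.6, 32.0 and 26.8 CPM in CDSUM, 21.1, 33.2 and 21.6 in CDWIN, 23.2, 26.2 and 26.7 in CQSUM and 22.6, 23.1 and 33.8 in CQWIN, against 38.9, 42.0 and 44.4 CPM in DMSO. No PM2.5 library reached the DMSO range, with log2 fold changes of -0.62, -0.72, -0.72 and -0.66 (SE 0.20 each). ATG2A, a lipid transfer protein that works beside ATG9A, had 18.6, 20.4 and 19.5 CPM in CQSUM, against 33.6, 32.1 and 31.1 CPM in DMSO, and fell there (-0.73 ± 0.22). After trend correction the falls of ATG9A in CDWIN (-0.33), CQSUM (-0.26) and CQWIN (-0.22) and of ATG2A (-0.02) no longer passed the threshold, whereas ATG9A in CDSUM still did. The ATG9A call in CDSUM ended with DESeq2 size factors (-0.47), with no filter on low counts (-0.41), and without CDSUM library 1 (-0.51) or DMSO library 3 (-0.58), that in CQWIN without CQWIN library 1 (-0.55) or 2 (-0.44) or DMSO library 2 (-0.65) or 3 (-0.61), and the ATG2A call without DMSO library 1 (-0.70).

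Among the 6 genes of the conjugation machinery, ATG12 rose in all 4 comparisons and ATG5, to which ATG12 is joined, in 3 of them. ATG12 had 53.5, 53.6 and 55.9 CPM in CDSUM, 53.4, 57.2 and 63.0 in CDWIN, 45.1, 57.6 and 49.9 in CQSUM and 59.7, 47.0 and 33.1 in CQWIN, against 31.0, 32.3 and 32.0 CPM in DMSO. The third CQWIN library came close to DMSO, and the log2 fold changes were 0.78 ± 0.17, 0.87 ± 0.17, 0.68 ± 0.17 and 0.55 ± 0.17. ATG5 had 23.1, 21.9 and 20.8 CPM in CDSUM, 34.4, 30.2 and 37.4 in CDWIN, 31.0, 34.3 and 37.5 in CQSUM and 40.7, 30.5 and 22.5 in CQWIN, against 19.0, 20.7 and 19.1 CPM in DMSO. CDSUM lay just above DMSO (0.16 ± 0.18, not called), whereas CDWIN, CQSUM and CQWIN rose by 0.80, 0.81 and 0.67 (SE 0.18 each). ATG4B, the protease that trims LC3 and GABARAP proteins, fell instead: it had 42.7, 46.1 and 43.8 CPM in CDSUM, 36.6, 45.6 and 33.2 in CDWIN, 41.8, 40.4 and 37.6 in CQSUM and 34.3, 42.3 and 38.9 in CQWIN, against 61.0, 71.0 and 58.4 CPM in DMSO. The groups did not overlap, and the log2 fold changes were -0.52, -0.72, -0.67 and -0.72 (SE 0.14 to 0.15). The enzymes ATG7 (0.29 to 0.34) and ATG3 (-0.19 to 0.33) and the scaffold ATG16L1 (-0.06 to 0.07) were called in no comparison with DMSO. After trend correction no fall of ATG4B passed the threshold (-0.15 to -0.05), nor did ATG5 (0.44 and 0.33) and ATG12 (0.45 and 0.32) in CQSUM and CQWIN, whereas ATG7 passed it in CDSUM (0.56), CDWIN (0.72), CQSUM (0.68) and CQWIN (0.53). The ATG4B call in CDSUM also ended with DESeq2 size factors (-0.38) and with no filter on low counts (-0.31), the CQWIN calls of ATG5 and ATG12 ended without CQWIN library 1 (0.44 and 0.34), and the ATG12 call there ended also without any 1 DMSO library (0.53 to 0.57). Without CQWIN library 3 they were larger (1.04 and 0.93). AP3S1, on the opposite strand at ATG12, was higher too (0.62 to 0.86), and THAP4, opposite ATG4B, was lower (-0.70 to -0.54). In the annotation 16 of the 39 genes overlap another gene, 15 of them on the opposite strand. ARSG, AP3S1, THAP4 and PNPLA6, which overlaps MCOLN1, are the partners called against DMSO in the same direction and comparison as their member. No source used here gives the strand setting of the authors' counting, so reads of all these pairs may be shared.

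Of the ubiquitin-like proteins that coat the autophagosome, GABARAPL1 changed most. Its libraries had 51.7, 50.1 and 59.6 CPM in CDSUM, 55.7, 37.8 and 46.4 in CDWIN, 35.2, 44.2 and 39 in CQSUM and 62.3, 29 and 31.9 in CQWIN, against 23.9, 22 and 22.6 CPM in DMSO. All PM2.5 libraries exceeded DMSO, with the first CQWIN library above CDSUM and the others near the DMSO range, and the log2 fold changes were 1.24 ± 0.23, 1.03 ± 0.23, 0.79 ± 0.23 and 0.85 ± 0.23. Without CQWIN library 1 the value in CQWIN was 0.42 and not called, and without CQSUM library 2 that in CQSUM was 0.70 and not called. GABARAPL2 had 82.2, 76.3 and 83.1 CPM in CDSUM, 75.5, 72.0 and 76.9 in CDWIN, 61.2, 76.2 and 65.0 in CQSUM and 94.2, 57.9 and 53.0 in CQWIN, against 55.0, 55.8 and 49.8 CPM in DMSO. It rose in CDSUM (0.59 ± 0.17) and CDWIN (0.48 ± 0.17), while only CQWIN overlapped DMSO. MAP1LC3B, which encodes the usual marker of autophagosomes LC3B, had 53.6, 49.4 and 57.4 CPM in CDSUM, 57.9, 45.0 and 60.1 in CDWIN, 59.3, 53.8 and 61.3 in CQSUM and 63.6, 56.8 and 57.1 in CQWIN, against 43.9, 46.6 and 49.9 CPM in DMSO. Its changes of 0.19, 0.21, 0.31 and 0.34 (SE 0.14 each) were not called, though CQSUM and CQWIN lay above DMSO, and trend-corrected it passed the threshold in CDWIN (0.39), CQSUM (0.46) and CQWIN (0.43). GABARAP itself was low, with 7.30, 7.51 and 5.97 CPM in CDSUM, against 3.5, 5.40 and 5.07 CPM in DMSO, and rose there (0.57 ± 0.22). That call ended after trend correction (0.10) and without CDSUM library 1 (0.54) or 2 (0.51) or DMSO library 1 (0.40) or 3 (0.64). GABARAPL2 in CDSUM was 0.37 after trend correction, still called. Its call in CDWIN ended after trend correction (0.03) and without CDWIN library 1 (0.48) or 3 (0.46) or any 1 DMSO library (0.43 to 0.52).

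**Figure D2:**
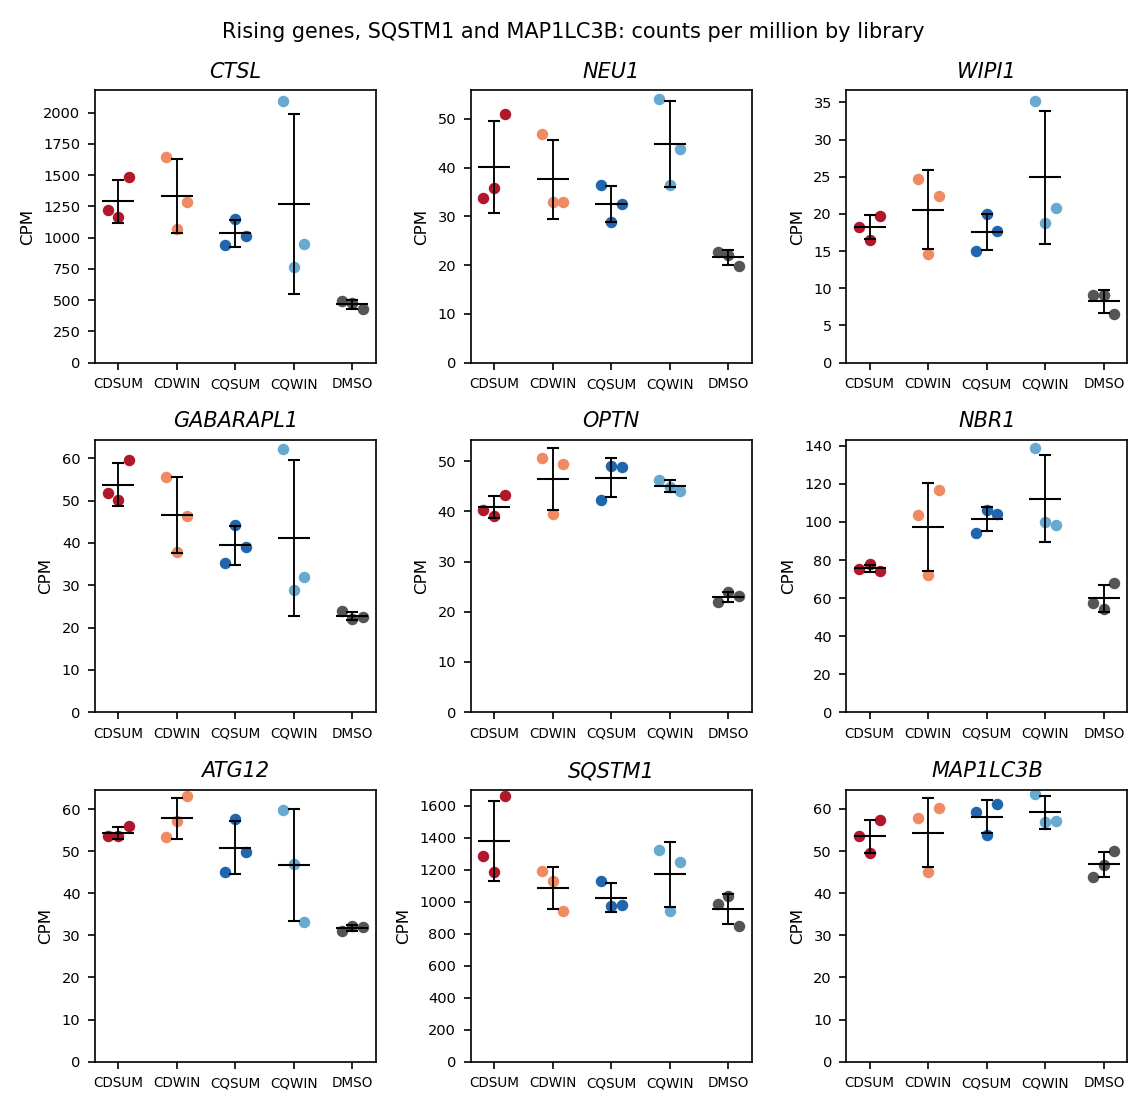
CPM (vertical axes, from 0) of 9 genes in each of the 15 libraries, by group, with points for libraries and bars for the mean and SD of 3. CTSL, NEU1, WIPI1, GABARAPL1 and OPTN lie above DMSO in every PM2.5 library, the first CQWIN library is the highest of all for CTSL (2094 CPM), and SQSTM1 and MAP1LC3B change less.

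The 5 cargo receptors diverged. OPTN, a receptor for ubiquitin-tagged mitochondria and bacteria, had 40.3, 39.1 and 43.2 CPM in CDSUM, 50.6, 39.4 and 49.4 in CDWIN, 42.2, 49.1 and 48.9 in CQSUM and 46.3, 44.8 and 44.0 in CQWIN, against 21.9, 23.9 and 23.1 CPM in DMSO. The gap to DMSO was wide in every group, with log2 fold changes of 0.83, 1.02, 1.02 and 0.97 (SE 0.14 each, adjusted p between 8.48e-05 and 0.000371 by edgeR's quasi-likelihood test). NBR1, a relative of SQSTM1 that also binds ubiquitin, had 75.2, 77.9 and 74.2 CPM in CDSUM, 104, 72.0 and 117 in CDWIN, 94.2, 106 and 104 in CQSUM and 139, 99.8 and 98.2 in CQWIN, against 57.4, 54.3 and 67.8 CPM in DMSO. It rose in CDWIN (0.70), CQSUM (0.76) and CQWIN (0.91, SE 0.17 each) and missed the threshold in CDSUM (0.34), where it passed with DESeq2 size factors (0.49) and after trend correction (0.55). SQSTM1, which encodes the receptor p62, had 1286, 1185 and 1661 CPM in CDSUM, 1193, 1128 and 942 in CDWIN, 1129, 971 and 977 in CQSUM and 1324, 942 and 1248 in CQWIN, against 983, 1033 and 847 CPM in DMSO. It rose in CDSUM (0.53 ± 0.18), with no overlap, and the changes of 0.19, 0.10 and 0.30 in CDWIN, CQSUM and CQWIN were not called. The CDSUM call ended without CDSUM library 3 (0.38) or DMSO library 1 (0.55) or 3 (0.45), whereas the trend-corrected values of SQSTM1 passed the threshold in CDSUM (0.92), CDWIN (0.80), CQSUM (0.69) and CQWIN (0.82).

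The remaining receptors were low in CDSUM. TAX1BP1, a ubiquitin-binding receptor that also restrains inflammatory signalling, had 10.8, 10.7 and 11.9 CPM in CDSUM, 73.6, 27.6 and 48.3 in CDWIN, 89.1, 38.4 and 69.5 in CQSUM and 38.2, 79.9 and 70.4 in CQWIN, against 90.1, 61.9 and 80.6 CPM in DMSO. The 3 CDSUM libraries were close to each other and far below the other 12, which themselves spread widely, and the log2 fold change against DMSO was -2.80 ± 0.35 (adjusted p = 5.97e-05 by edgeR's quasi-likelihood test, trend-corrected -2.57). CALCOCO2, which encodes the receptor NDP52, had 21.8, 18.9 and 19.3 CPM in CDSUM, 55.5, 31.4 and 49.9 in CDWIN, 64.7, 44.1 and 56.3 in CQSUM and 56.4, 65.6 and 58.5 in CQWIN, against 36.5, 35.7 and 39.2 CPM in DMSO. It fell in CDSUM (-0.89 ± 0.19) and rose in CQSUM (0.57 ± 0.18) and CQWIN (0.70 ± 0.18). The CQSUM rise lost its call without CQSUM library 1 (0.44) or 3 (0.55) or DMSO library 1 (0.56) or 2 (0.54).

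Between particulate samples, the largest differences were those of TAX1BP1 and PIK3C3, both lower in CDSUM than in CDWIN or CQSUM. In CDWIN against CDSUM 4 of the 39 were called higher, beside 8.17% of all genes: PIK3C3 (2.31 ± 0.36), TAX1BP1 (2.17 ± 0.34), CALCOCO2 (1.19 ± 0.19) and ATG5 (0.63 ± 0.18). The adjusted p of the first 3 lay between 0.000683 and 0.000712 by edgeR's quasi-likelihood test. None was lower by edgeR with the settings used throughout, by DESeq2 or at an unadjusted p below 0.05, beside 0.244% of all genes. With CDWIN library 2 and CQWIN library 3 both left out, 7 of the 39 were called higher and 1 lower. Of all 15900 genes in that fit, 1939 were higher and 248 lower. In CDSUM against CQSUM 7 of the 39 were lower, beside 13.7% of all genes, and none higher by edgeR with the settings used throughout (2 at an unadjusted p below 0.05, 1 by DESeq2), beside 0.167%: TAX1BP1 (-2.56 ± 0.34), PIK3C3 (-2.52 ± 0.36), RB1CC1 (-1.74 ± 0.49), CALCOCO2 (-1.46 ± 0.19), PIK3R4 (-0.81 ± 0.26), ATG5 (-0.64 ± 0.18) and ATG3 (-0.52 ± 0.15). Other settings of edgeR called some of the 39 higher in CDSUM than in CQSUM: ATG12 (0.78) and GABARAPL2 (0.497) after trend correction, ULK1 (0.58) and SQSTM1 (0.60) with the length trend alone removed, and ULK1 (0.61), GABARAPL1 (0.65) and SQSTM1 (0.63) with no filter on low counts. For CQWIN against CQSUM and CDWIN against CQWIN none of the 39 was called by edgeR's quasi-likelihood test or by DESeq2, beside 0.0193% and 0.0128% of all genes by the first. At an unadjusted p below 0.05, 3 of the 39 were higher and 0 lower in CQWIN against CQSUM, and 1 was higher and 4 lower in CDWIN against CQWIN. Without CQWIN library 1, 5 of the 39 were called in CDWIN against CQWIN, beside 1885 of all 15989 genes tested in that fit. The CDWIN minus CDSUM difference exceeded the CQWIN minus CQSUM difference for PIK3C3 (by 2.25 ± 0.48), TAX1BP1 (2.23 ± 0.46) and CALCOCO2 (1.06 ± 0.26) in an interaction test, which called 2.02% of all genes. The calls of TAX1BP1, PIK3C3 and CALCOCO2 in CDWIN against CDSUM and in CDSUM against CQSUM held in every alternative tried. Of the 4 calls in CDWIN against CDSUM, 3 remained with DESeq2 size factors, 3 with DESeq2 and 3 with the length trend alone removed. Of the 7 calls in CDSUM against CQSUM, 5, 6 and 5 remained in these settings. Those of RB1CC1, PIK3R4, ATG5 and ATG3 in CDSUM against CQSUM did not survive trend correction (-0.998, -0.61, -0.05 and 0.02), nor did ATG5 in CDWIN against CDSUM (0.17). With no filter on low counts PIK3R4 (-0.60), ATG5 (-0.44 and 0.45) and ATG3 (-0.31) also lost these calls. Each of those 5 calls also ended without single libraries: RB1CC1 without any CDSUM library (-1.85 to -1.65) or CQSUM library 1 (-0.88), PIK3R4 without any CDSUM library (-0.87 to -0.75) or CQSUM library 1 (-0.65) or 3 (-0.79), ATG5 without CDSUM library 2 (-0.64) or 3 (-0.61) or CQSUM library 3 (-0.57), ATG3 without CDSUM library 2 (-0.50) or 3 (-0.47) or CQSUM library 2 (-0.48) or 3 (-0.49), and ATG5 in CDWIN against CDSUM without any CDSUM library (0.59 to 0.67) or CDWIN library 1 (0.63) or 3 (0.56). CDWIN library 2, whose GC slope was positive like those of CDSUM, was also the CDWIN library nearest to CDSUM for TAX1BP1, PIK3C3, CALCOCO2 and ATG5.

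**Figure D3:**
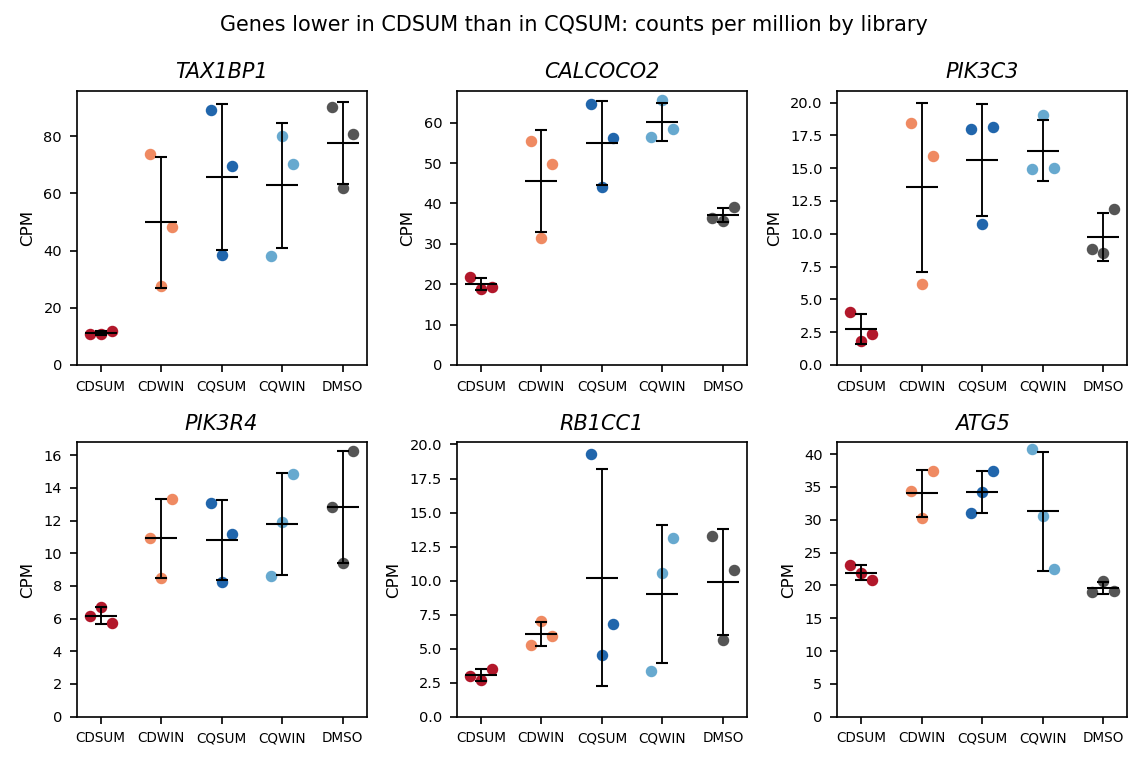
CPM (vertical axes, from 0) of the 6 genes TAX1BP1, CALCOCO2, PIK3C3, PIK3R4, RB1CC1 and ATG5 in each of the 15 libraries, by group, with points for libraries and bars for the mean and SD of 3. The CDSUM points of TAX1BP1 cluster near 11 CPM below all others, and for RB1CC1 the first CQSUM library stands high at 19.3 CPM.

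The longest annotated transcripts of TAX1BP1, CALCOCO2, PIK3C3, PIK3R4 and RB1CC1 have 37.6% to 48.0% GC and 3682 to 9443 bases, against medians of 49.8% and 4020 bases over the 39, and the part of composition and length in their falls was not tested beyond the trend-corrected values. TAX1BP1 is at that median length (4020 bases) and CALCOCO2 below it (3682). Among genes that rose in CDSUM, ATG12 has 37.5% GC, GABARAPL2 42.1% and OPTN 44.8%, whereas SQSTM1 has 58.0%. TAX1BP1 lies on chromosome 7 at 27739331 to 27844564 on the plus strand, and PIK3C3 on chromosome 18 at 41955206 to 42087830, also plus (GRCh38 coordinates as in the table).

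TFEB and TFE3, the transcription factors that drive lysosomal genes, were both lower at the transcript level. TFEB had 8.68, 8.71 and 9.72 CPM in CDSUM, 5.77, 9.73 and 6.95 in CDWIN, 7.07, 7.64 and 7.35 in CQSUM and 6.32, 10.1 and 5.72 in CQWIN, against 11.3, 15.4 and 11.5 CPM in DMSO. Every PM2.5 library was below DMSO, and the log2 fold changes of -0.77, -0.80 and -0.79 (SE 0.24 each) in CDWIN, CQSUM and CQWIN were called, unlike -0.50 in CDSUM. TFE3 was more abundant, with 106, 110 and 113 CPM in CDSUM, 84.7, 106 and 82.2 in CDWIN, 105, 90.8 and 96.7 in CQSUM and 89.6, 93.3 and 128 in CQWIN, against 137, 150 and 127 CPM in DMSO. It fell in CDWIN (-0.60 ± 0.15) and CQSUM (-0.50 ± 0.15), with 1 CQWIN library inside the DMSO range (-0.41, not called there). After trend correction none of the falls of TFEB (-0.34 to -0.31) and TFE3 (-0.23 and -0.07) passed the threshold. Single libraries also ended the TFEB calls, in CDWIN without CDWIN library 1 (-0.61) or 3 (-0.72) or DMSO library 2 (-0.61), in CQSUM without CQSUM library 3 (-0.79) or DMSO library 2 (-0.63), and in CQWIN without CQWIN library 1 (-0.69) or 3 (-0.44) or DMSO library 2 (-0.63), and the TFE3 call in CQSUM ended without CQSUM library 2 (-0.45) or 3 (-0.50) or DMSO library 1 (-0.51) or 2 (-0.44).

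TFEB and TFE3 bind E-box sequences whose core is CACGTG, so promoters of lysosomal members are shown here with that core in capitals. RefSeq windows (GRCh38.p14, around each start site, mostly upstream of it) were available for 34 of the 39 genes, in 43 windows. The palindrome CACGTG, which reads alike on both strands, occurred in 14.0% of those windows, in ATG3, ATG14, CTSD, LAMP1, MCOLN1 and NEU1, and in 7.26% of all 35116 windows. The longer palindrome TCACGTGA, which contains CACGTG, occurred in 6.98% of the members' windows and 0.98% of all. The LAMP1 window (chr13:113296989-113297288, plus strand) held 6 copies of CACGTG, that of MCOLN1 (chr19:7522374-7522673, plus strand) 2 copies and that of NEU1 (chr6:31862772-31863071, minus strand) 1 copy. A copy is a match of letters and not a measured binding site.
LAMP1: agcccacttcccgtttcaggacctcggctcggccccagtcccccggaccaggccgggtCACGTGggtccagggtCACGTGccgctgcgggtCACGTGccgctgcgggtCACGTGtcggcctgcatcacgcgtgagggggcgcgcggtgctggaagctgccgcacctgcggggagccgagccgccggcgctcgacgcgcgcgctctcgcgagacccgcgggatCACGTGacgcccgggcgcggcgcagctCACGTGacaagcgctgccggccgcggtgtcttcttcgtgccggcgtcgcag
MCOLN1: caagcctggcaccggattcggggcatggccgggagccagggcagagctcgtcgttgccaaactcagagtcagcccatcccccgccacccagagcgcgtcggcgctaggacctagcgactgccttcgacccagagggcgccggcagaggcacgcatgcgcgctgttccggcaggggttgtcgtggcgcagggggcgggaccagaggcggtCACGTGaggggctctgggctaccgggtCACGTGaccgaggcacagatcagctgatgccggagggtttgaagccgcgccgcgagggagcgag
NEU1: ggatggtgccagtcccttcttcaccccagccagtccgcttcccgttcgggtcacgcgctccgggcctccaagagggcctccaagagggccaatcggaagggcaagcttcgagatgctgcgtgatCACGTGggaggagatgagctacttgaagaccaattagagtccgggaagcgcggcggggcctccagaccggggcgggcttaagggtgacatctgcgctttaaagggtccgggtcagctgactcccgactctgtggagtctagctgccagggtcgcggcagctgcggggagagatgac
These 3 windows are shown for the membrane protein with the most copies, the lysosomal channel and NEU1, a hydrolase that rose. CTSL, the other hydrolase that rose, had 0 copies of CACGTG in its window. Against DMSO, LAMP1, MCOLN1, CTSD and ATG14 were lower where they were called, NEU1 was higher, and ATG3 was not called.

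LAMP1 and LAMP2, the main glycoproteins of the lysosomal membrane, parted. LAMP1, whose promoter window is the one with 6 E-box cores, had 84.3, 101 and 114 CPM in CDSUM, 86.3, 92.2 and 83.8 in CDWIN, 102, 77.8 and 89.8 in CQSUM and 85.8, 101 and 114 in CQWIN, against 162, 151 and 147 CPM in DMSO. All PM2.5 libraries were below DMSO, with log2 fold changes of -0.62, -0.81, -0.77 and -0.62 (SE 0.15 each, adjusted p between 0.000641 and 0.00569 by edgeR's quasi-likelihood test), and these falls remained called after trend correction. The CDSUM call ended with no filter on low counts (-0.41) and the CQWIN call without CQWIN library 2 (-0.49). LAMP2 had 77.2, 67.3 and 85.2 CPM in CDSUM, 98.4, 69.0 and 106 in CDWIN, 104, 95.5 and 106 in CQSUM and 119, 97.2 and 111 in CQWIN, against 77.1, 67 and 71.3 CPM in DMSO. CQSUM and CQWIN lay above DMSO and rose by 0.51 ± 0.16 and 0.60 ± 0.16, CDSUM and CDWIN overlapped it, and trend-corrected neither rise was called (0.11 and 0.25). The CQSUM call ended also without CQSUM library 3 (0.48) or DMSO library 2 (0.46) or 3 (0.50). MCOLN1, a calcium channel of the lysosome, fell in CQSUM (-0.67 ± 0.22), a call lost without any 1 of the 6 libraries (-0.73 to -0.61) and after trend correction (-0.22). PNPLA6, which overlaps MCOLN1 on the same strand, was lower in CQSUM as well (-0.81 ± 0.15).

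**Figure D4:**
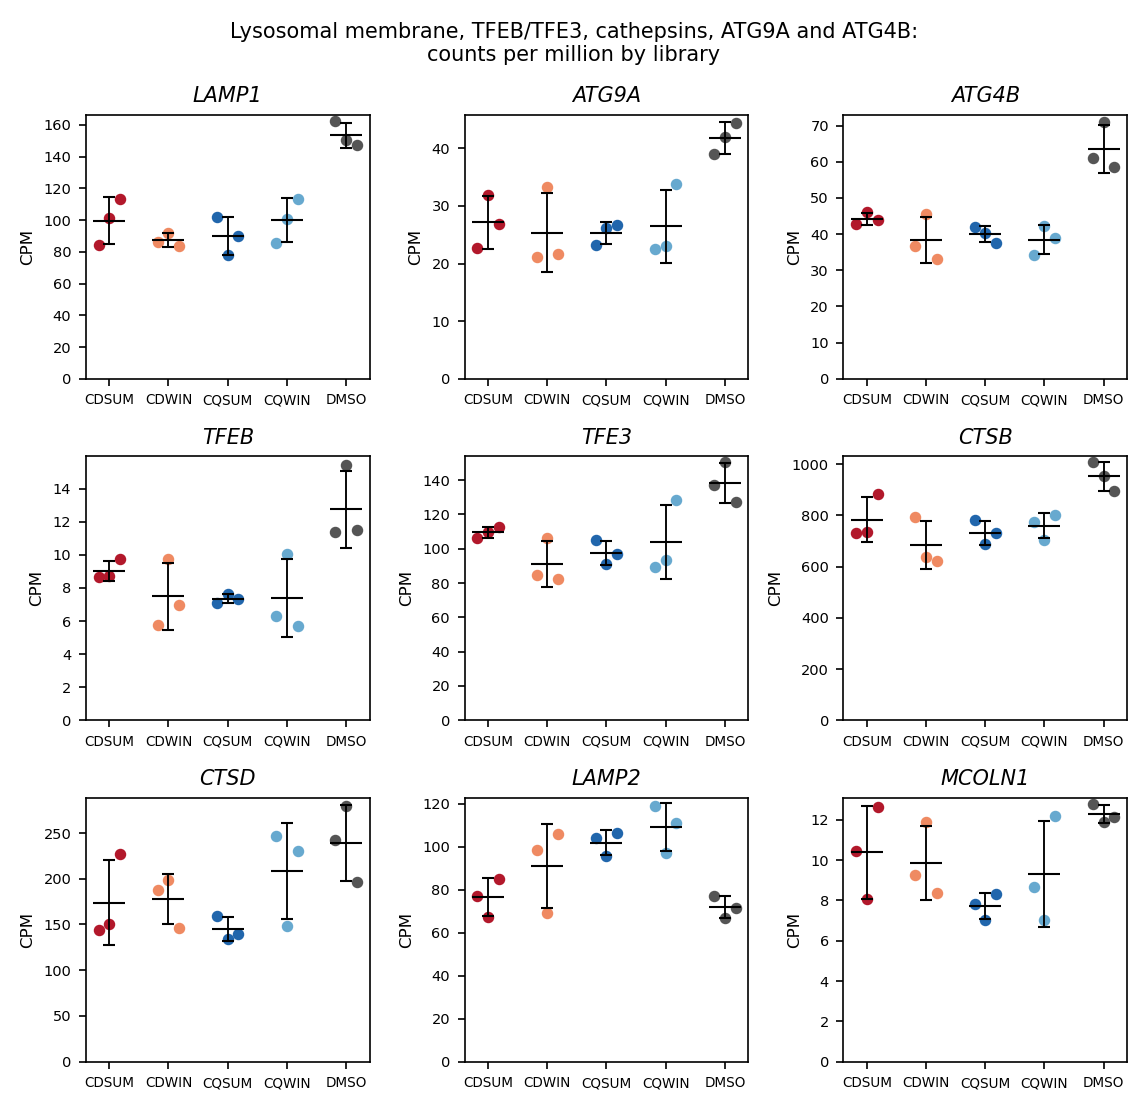
CPM (vertical axes, from 0) of 9 genes in each of the 15 libraries, by group, with points for libraries and bars for the mean and SD of 3. LAMP1, ATG9A, ATG4B, TFEB and CTSB lie below DMSO in every PM2.5 library, and LAMP2 lies above DMSO in CQSUM and CQWIN.

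Among the 6 lysosomal hydrolases, CTSL and NEU1 rose in all 4 comparisons while the other cathepsins fell or were not called. CTSL, a cysteine protease, had 1219, 1165 and 1487 CPM in CDSUM, 1647, 1068 and 1284 in CDWIN, 937, 1151 and 1014 in CQSUM and 2094, 765 and 951 in CQWIN, against 497, 477 and 426 CPM in DMSO. The lowest PM2.5 library exceeded the highest DMSO library, and the log2 fold changes were 1.47 ± 0.28, 1.52 ± 0.28, 1.15 ± 0.27 and 1.45 ± 0.28 (adjusted p between 0.000617 and 0.00457 by edgeR's quasi-likelihood test). The first CQWIN library stood far above the other CQWIN libraries, and without it the value in CQWIN was 0.88, still called. NEU1, a sialidase, had 33.8, 35.8 and 51.0 CPM in CDSUM, 46.9, 33.0 and 32.9 in CDWIN, 36.4, 28.9 and 32.5 in CQSUM and 54.1, 36.5 and 43.9 in CQWIN, against 22.8, 22.1 and 19.9 CPM in DMSO. It too had no overlap with DMSO, at 0.90, 0.80, 0.59 and 1.05 (SE 0.19 each), though its CQSUM call ended without CQSUM library 1 (0.51) or 3 (0.60) or any 1 DMSO library (0.54 to 0.63).

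CTSB, a cysteine protease related to CTSL, had 730, 736 and 884 CPM in CDSUM, 794, 637 and 623 in CDWIN, 781, 688 and 731 in CQSUM and 775, 705 and 800 in CQWIN, against 1010, 954 and 894 CPM in DMSO. The groups did not overlap, and CTSB was called lower in CDWIN (-0.48 ± 0.15) but not in CDSUM (-0.28), CQSUM (-0.38) or CQWIN (-0.33). CTSD, an aspartic protease, had 144, 151 and 227 CPM in CDSUM, 188, 199 and 146 in CDWIN, 160, 135 and 140 in CQSUM and 247, 148 and 230 in CQWIN, against 243, 279 and 196 CPM in DMSO. Only CQSUM lay wholly below DMSO and was called (-0.73 ± 0.21). CTSZ (-0.27 to -0.08) and HEXA, a subunit of a hexosaminidase (0.02 to 0.22), were called in no comparison with DMSO, though trend-corrected both passed the threshold in CDSUM (-0.38 and 0.55). The calls of CTSB and CTSD ended after trend correction (-0.04 and -0.30), that of CTSB also with no filter on low counts (-0.45) and without CDWIN library 3 (-0.41) or DMSO library 1 (-0.43), and that of CTSD without CQSUM library 2 (-0.68) or DMSO library 2 (-0.60).

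ATG4B, ATG9A, TFE3 and TFEB, which fell in several comparisons, and ATG2A, MCOLN1 and CTSD, which fell in CQSUM alone, have 57.7% to 64.0% GC in their longest transcript. That of LAMP1, whose falls kept their call after trend correction, has 51.2%. GC content was lower than 57.7% also in ATG13 (52.6%), ATG14 (44.6%) and CTSB (52.8%), which fell in CDWIN alone. ULK1 (64.2%), ATG101 (59.8%) and CTSZ (58.3%) were GC-rich and not called against DMSO, and SQSTM1 (58.0%) rose in CDSUM. The part of GC content in the falls was not tested beyond the trend-corrected values. With the trends removed, 14 of the 39 rose and 8 fell in CDSUM, beside 13.5% and 28.8% of all genes. The trend-corrected counts were 14 and 2 in CDWIN beside 15.6% and 17.6%, 11 and 1 in CQSUM beside 8.82% and 10.7%, and 10 and 1 in CQWIN beside 7.29% and 8.63%. Falls were thus fewer than without the correction in CDWIN, CQSUM and CQWIN. Gene by gene, 16 of the 39 genes were called in both fits in CDSUM, 11 in CDWIN, 8 in CQSUM and 8 in CQWIN, 2, 7, 10 and 7 were called only without the correction, and 6, 5, 4 and 3 only with it. CTSL, WIPI1, OPTN, GABARAPL1 and NEU1 were called in both in each of the 4 comparisons.

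**Figure D5:**
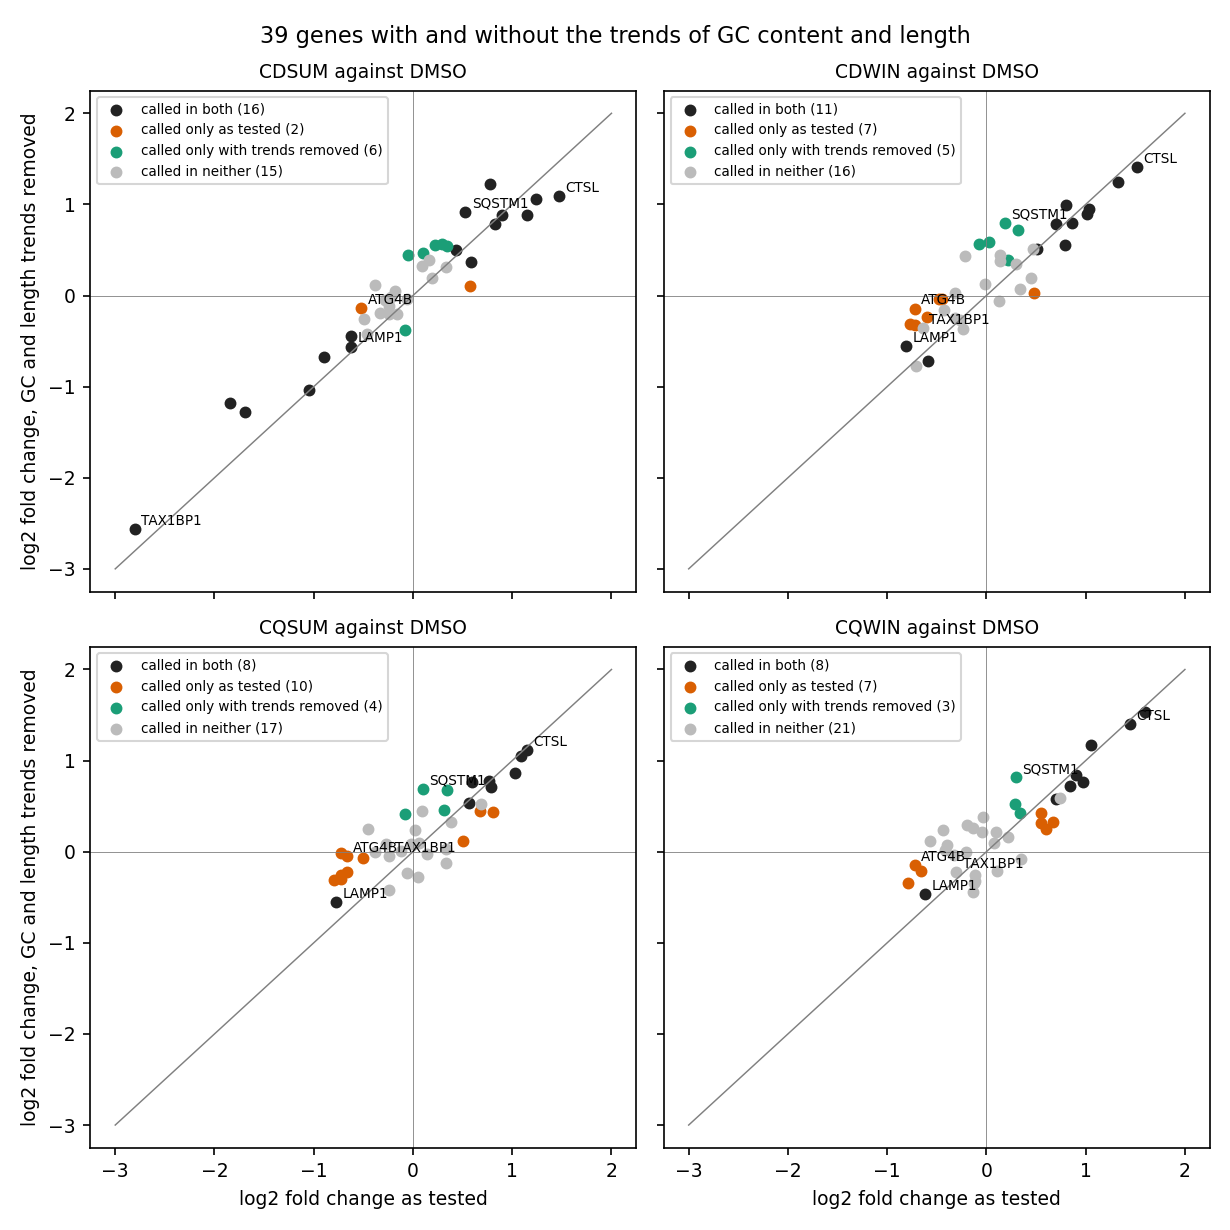
Log2 fold change as tested (horizontal axes) against the value with GC and length trends removed (vertical axes) for the 39 genes in each comparison with DMSO, coloured by call, with the line of equality. SQSTM1 lies above the line in each panel, ATG4B moves towards 0, and CTSL is lower with the trends removed in CDSUM (1.09).

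In the authors' deposited table, with its own adjusted p below 0.05, 18 of the 39 genes were higher and 7 lower in CDSUM against DMSO. The authors' deposited table gave 12 higher and 6 lower in CDWIN, 15 and 10 in CQSUM, and 10 and 4 in CQWIN. Between particulate samples, the authors' deposited table had 6 higher and none lower in CDWIN against CDSUM, and 4 higher and 9 lower in CDSUM against CQSUM. The share of all genes called in the deposited comparisons was not counted, so these numbers are not a result about the 39 as a set.

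The counts of the other gene lists stand beside the called shares of all genes, with no set test. Of all genes, 15.3% were called higher and 31.2% lower in CDSUM, and 18.4% and 23.3% in CDWIN. These shares were 13.7% and 18.8% in CQSUM and 11.6% and 15.8% in CQWIN. Medians over all genes were -0.25, -0.107, -0.004 and 0.021. Of 38 autophagy genes outside the 39 that were tested, 8 rose and 8 fell in CDSUM, 13 and 2 in CDWIN, 13 and 4 in CQSUM and 12 and 0 in CQWIN, with medians of -0.07, 0.12, 0.27 and 0.38. Trend-corrected counts were 12 and 10, 10 and 2, 8 and 0, and 7 and 0. The trend-corrected shares of all genes were 13.5% and 28.8%, 15.6% and 17.6%, 8.82% and 10.7%, and 7.29% and 8.63%. Genes of these other lists are named only in comparisons where they were among the 4 called genes with the largest change. A comparison left out for a gene is therefore not one without a change. ATG2B, the paralogue of ATG2A, fell most in CDSUM (-2.16 ± 0.45), where SEC62, an endoplasmic reticulum receptor of autophagy, fell too (-1.58 ± 0.37). TP53INP1, which binds LC3, rose in CDWIN (1.22 ± 0.36), CQSUM (1.21 ± 0.36) and CQWIN (1.62 ± 0.36), though not after trend correction in CQSUM (0.87). BNIP3L, a receptor for mitochondria, rose in CQWIN (1.04 ± 0.18, trend-corrected 0.63). Its mean was 44.1 CPM in CDWIN and 48.2 in CQSUM, against 26.9 in DMSO. Under DESeq2 size factors the median of the 38 genes in CDSUM turned to 0.08.

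Of 40 lysosomal enzymes outside the 39, which digest lipids, glycans and proteins, 5 rose and 17 fell in CDSUM, 6 and 16 in CDWIN, 4 and 17 in CQSUM and 4 and 6 in CQWIN, with medians of -0.33, -0.23, -0.32 and -0.11. With DESeq2 size factors the counts were 7 and 4, 7 and 15, 5 and 11, and 7 and 4, and trend-corrected counts were 6 and 14, 4 and 5, 3 and 3, and 3 and 0. Of all 15565 genes, DESeq2 size factors gave 2971 rises and 3612 falls in CDSUM and 3168 and 3056 in CDWIN. They gave 2635 and 2406 in CQSUM and 2176 and 2108 in CQWIN. LIPA, the lysosomal acid lipase, rose in CDSUM (0.89 ± 0.19), CDWIN (0.96 ± 0.19) and CQWIN (1.14 ± 0.19), and ASAH1, acid ceramidase, in CDWIN (1.08 ± 0.23), CQSUM (1.09 ± 0.23) and CQWIN (1.17 ± 0.23). GAA, which degrades glycogen in lysosomes, fell in CDSUM (-0.86 ± 0.19, trend-corrected -0.56) and CQSUM (-1.04 ± 0.19, trend-corrected -0.47). In groups not named for them, GAA had means of 79.5 CPM in CDWIN and 73.1 in CQWIN, against 132 in DMSO. LIPA had a mean of 137 CPM in CQSUM, against 74.2 in DMSO. SGSH, a heparan sulfatase, fell in CDWIN (-0.92 ± 0.22), CQSUM (-1.002 ± 0.22) and CQWIN (-0.87 ± 0.22), and none of these 3 SGSH falls was called after trend correction (-0.41 to -0.35).

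Of 28 other lysosomal membrane and trafficking genes tested, 7 rose and 7 fell in CDSUM, 11 and 5 in CDWIN, 7 and 7 in CQSUM and 9 and 3 in CQWIN, with medians of -0.13 (0.02 with DESeq2 size factors), 0.11, 0.36 and 0.42. With DESeq2 size factors 10 rose and 3 fell in CDSUM and 9 and 5 in CQSUM, and trend-corrected counts were 9 and 4, 9 and 1, 5 and 1, and 7 and 1. NPC2, a cholesterol carrier of the lysosome, rose in CDSUM (0.96 ± 0.18) and CDWIN (1.01 ± 0.18; 0.59 and 0.58 trend-corrected, still called), and LMBRD1, a cobalamin exporter, in CDWIN (1.37 ± 0.22), CQSUM (1.11 ± 0.22) and CQWIN (1.26 ± 0.22). IGF2R, the receptor that sorts hydrolases to the lysosome, fell in CDSUM (-0.98 ± 0.25), CDWIN (-1.10 ± 0.25) and CQSUM (-1.22 ± 0.25), and was -0.52, -0.57 and -0.82 after trend correction, still called. Of 18 subunits and accessory genes of the vacuolar ATPase, the proton pump of the lysosome, 6 rose and 5 fell in CDSUM, 8 and 3 in CDWIN, 7 and 4 in CQSUM and 7 and 3 in CQWIN, with medians of -0.07 (0.08 with DESeq2 size factors), 0.29, 0.26 and 0.31. With DESeq2 size factors 7 rose and 3 fell in CDSUM, 8 and 2 in CQSUM and 7 and 1 in CQWIN, and trend-corrected counts were 7 and 3, 7 and 2, 3 and 2, and 2 and 1. ATP6V1E1 rose by 1.33 ± 0.21, 1.35 ± 0.21, 1.04 ± 0.21 and 0.99 ± 0.21, and ATP6AP1, an accessory protein, fell in CQSUM (-0.91 ± 0.17, trend-corrected -0.58).

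Of 31 genes of mTORC1 and nutrient sensing tested, 11 rose and 8 fell in CDSUM, 9 and 5 in CDWIN, 8 and 5 in CQSUM and 8 and 4 in CQWIN, with medians of 0.08, 0.30, 0.33 and 0.30, and trend-corrected counts were 8 and 4, 10 and 2, 6 and 2, and 5 and 1. MTOR, the kinase, fell in CDSUM (-1.16 ± 0.24) and CDWIN (-1.18 ± 0.24), and its partner RPTOR in CDWIN (-1.07 ± 0.18), CQSUM (-1.397 ± 0.18) and CQWIN (-0.999 ± 0.18). Trend-corrected, MTOR was -0.72 and -0.61 and RPTOR -0.36, -0.697 and -0.39 in these comparisons, all still called. In groups not named for them, MTOR had a mean of 21.7 CPM in CQSUM, against 42.5 in DMSO. RPTOR had a mean of 33.7 CPM in CDSUM, against 70.8 in DMSO. LAMTOR3, a subunit of the complex that tethers mTORC1 to the lysosome, rose by 1.16 ± 0.26, 1.401 ± 0.26, 1.13 ± 0.26 and 1.02 ± 0.26. Trend-corrected, LAMTOR3 was not called in CQSUM (0.66) and CQWIN (0.59).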

How the data were processed

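The deposited table holds, per the file headers, read counts for each gene and library, FPKM values made by the authors from them, and the authors' log2 fold changes with p-values and adjusted p-values. It also holds, per the file headers, a mean normalised signal of each compared group made by the authors, which was not used. No source used here names the aligner, the counter or the strand setting. The submitters' processing notes name mouse builds (GRCm38, mm10), whereas all 58735 gene IDs are human Ensembl IDs that match GENCODE 29 on GRCh38 in start and end. The labels' protocols name 2 different library kits. No per-sample column was left unused (0).

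Counts were tested with edgeR 4.0.16 (R 4.3.3): filterByExpr, TMM, all 5 groups in 1 quasi-likelihood fit with 10 residual degrees of freedom, and Benjamini-Hochberg adjustment over 15565 genes. The genes left out by the filter held 0.0838% of reads, and the common biological coefficient of variation was 20.5%. The fit was also run on simulated counts with known changes in CDSUM alone and without GC or length trends, unlike these data. Its outcome is not given here, and no result above rests on it. Alternatives used DESeq2 1.42.0, its size factors in edgeR, other filters, offsets for splines in GC content and gene length (6 degrees of freedom each), a replicate block, the 2 compared groups alone, and libraries left out. The interaction test was added after the main results were seen. Tables were handled in Python 3.11.15 with pandas 2.3.3, and plots drawn with matplotlib 3.10.9.

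The members and the other gene lists were chosen with earlier results of these data known. Any called member could be named, values per library were given for the 3 largest called rises and falls in each comparison with DMSO, for the largest between particulate samples and for 12 set genes, and up to 4 genes were named from each other list; values for NBR1, ATG5, ATG12, CALCOCO2 and other members outside that rule were added after they were seen.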

Additional observations from a re-analysis of the deposited data

Results flagged for a closer look

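For 3 of the 39 genes the difference between CDWIN and CDSUM was not the same as that between CQWIN and CQSUM, by an interaction term in edgeR's quasi-likelihood fit. For PIK3C3 the CDWIN minus CDSUM difference was larger by 2.249 on the log2 scale (SE 0.48, adjusted p = 0.0229). TAX1BP1 gave 2.228 (SE 0.46, adjusted p = 0.0209) and CALCOCO2 1.061 (SE 0.26, adjusted p = 0.0411). All 3 were low in each of the 3 CDSUM libraries. The GC slopes of the libraries also differed, at 0.145 to 0.207 in CDSUM and -0.179 to -0.118 in CQSUM, and their part in these differences was not tested. With 3 libraries a group, no test for single deviating libraries was run.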

How the results depend on the processing

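Leaving out 1 library at a time gave 14 to 19 called genes in CDSUM against DMSO, 12 to 20 in CDWIN, 11 to 15 in CQSUM (11 without DMSO library 2) and 9 to 20 in CQWIN (9 without CQWIN library 1). It gave 3 to 6 in CDWIN against CDSUM, 0 to 0 in CQWIN against CQSUM, 3 to 6 in CDSUM against CQSUM (3 without CDSUM library 2, 3 without CDSUM library 3 and 4 without CQSUM library 3) and 0 to 5 in CDWIN against CQWIN, where the 5 appeared without CQWIN library 1. In the fit without CQWIN library 1, 1885 of all 15989 genes were called in CDWIN against CQWIN. Without CDWIN library 2 and CQWIN library 3 together, CDWIN against CDSUM gave 8, of which 7 were higher and 1 lower. Of all 15900 genes in that fit, 1939 were higher and 248 lower. With the GC and length trends removed, the sign turned for ULK1 in CDSUM (0.443) and CDWIN (0.563), WIPI2 in CQSUM (0.411), and ATG3 (0.024) and CTSZ (-0.393) in CDSUM against CQSUM, and the cause was not tested. Deviations of same-numbered libraries correlated at -0.414 to 0.395. Differently numbered libraries were not compared in this way, so whether the replicate numbers pair the libraries stays undecided. With the replicate number as a block, the replicate block fit called 19, 19, 19 and 15 genes against DMSO, 4 in CDWIN against CDSUM, 8 in CDSUM against CQSUM and 0 in the other 2. Trend correction moved called values by over 1.5 times for ATG12 (1.23) and GABARAPL2 (0.37) in CDSUM, both still called, beside those given with each gene above, and a fit on the 2 compared groups alone ended the calls of ATG5, ATG9A, ATG12, BECN1, GABARAPL1 and TFEB in CQWIN. In that fit BECN1 was 0.66 and LAMP1 -0.39 in CDSUM, both still called, and with the length trend alone removed CALCOCO2 was -0.55 there. The interaction was fitted only with the main settings. DESeq2 size factors added calls for ATG7 in CDSUM, CDWIN and CQSUM, NBR1 in CDSUM, LAMP2 in CDWIN, BECN1 in CQSUM and MAP1LC3B in CQSUM and CQWIN. The standard error against DMSO was 0.46 to 0.49 for RB1CC1 and 0.33 to 0.36 for PIK3C3, against 0.192 to 0.195 for UVRAG, whose DMSO libraries had a similar CPM but a smaller SD (0.727 CPM, against 3.87 for RB1CC1).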
